A study of Mus musculus with 16 samples.

Results

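Axin2, Lef1, Tcf7, Tcf7l1, Tcf7l2, Sp5, Nkd1, Notum, Ctnnb1 and T (Brachyury) are 10 genes of the 46983 in the count table, namely Wnt target genes, the TCF/LEF transcription factors and the central effector of the canonical Wnt pathway. The set was chosen by the values of Axin2, which was higher after RAM siRNA in both input and polysomes, so the siRNA contrasts of Axin2 are given here as a description with no test. RNA was sequenced from 46C mouse embryonic stem cells (ESCs), a 129Ola line that carries GFP at the Sox1 locus, grown on gelatin with LIF. Cells were transfected for 48 hr with siRNA against RAM or with a non-targeting siRNA as control, each at 70 pM as the labels give it. The paper's methods give another amount of siRNA for transfections. RAM (symbol Ramac) is the activating subunit of RNMT, the methyltransferase that methylates the guanosine cap of mRNA. Each of the 4 groups, control input, RAM siRNA input, control polysomes and RAM siRNA polysomes, held 4 libraries. Input was cytoplasmic lysate, and polysomes were the pooled sucrose gradient fractions 17 to 22 of that lysate. The 16 libraries held between 16647523 and 20147833 counts on genes. The model is 1 cell line with a transient siRNA. Per the study's methods the experiment was repeated on separate occasions, and the labels do not say which library came from which.

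In the canonical Wnt pathway, a secreted Wnt ligand binds a Frizzled receptor and an LRP co-receptor, which stops the destruction complex from degrading β-catenin (Ctnnb1). β-catenin then enters the nucleus and binds the TCF/LEF factors, which in its absence act with repressors on target genes. Axin2, Sp5, Nkd1, Notum and T are targets of this step, several of them feedback inhibitors, and in mouse ESCs the repressor Tcf7l1 holds down pluripotency genes until β-catenin relieves it.

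TCF/LEF factors can bind the letters CTTTGAT or CTTTGAA. Only these motifs were searched, so a window without a match may hold other letters that the factors bind. The windows from 250 bases before to 50 after each gene start in RefSeq (GRCm38.p6) were searched for both motifs on both strands, with 15 windows for 9 of the 10 genes. Notum was not in that table. Of all 32851 windows, 8.65% held at least 1 of the motifs, 3.73% CTTTGAT and 5.14% CTTTGAA, and a match is a description of the letters only. A match was found for Sp5, with the motif starting 104 bases before the gene start (chr2:70474808-70474836), and for T, as the reverse complement and 235 bases before the start (chr17:8434177-8434205). Both are shown on the plus strand with the motif in capitals, since they are the places in these windows where either motif lies beside a gene described below.
Sp5: ggcaaggccccCTTTGATcaggaaaatcc
T: ctgctcggtacTTCAAAGggtgtcccgcc

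The siRNA target was lower in every library labelled RAM siRNA than in any control library of the same fraction. Ramac had 201, 202, 197 and 206 counts in control input and 57, 46, 58 and 56 after RAM siRNA. The groups did not overlap, and the log2 fold change was -1.84 (SE 0.114, adjusted p = 7.24e-06, quasi-likelihood test of edgeR). In polysomes Ramac had 122, 130, 156 and 256 counts in control and 16, 5, 45 and 44 after RAM siRNA, again with no overlap. Its log2 fold change there was -2.52 (adjusted p = 0.128 in edgeR), and -2.59 with replicate number as a block (adjusted p = 2.36e-05). Rnmt, the catalytic subunit, rose in input from 212.7 ± 21 to 275.3 ± 37.8 CPM, which are counts scaled by library size (SD, n = 4), with an adjusted p of 0.0389 in edgeR, which was lost without control library 1, 3 or 4 or RAM siRNA library 1, 2 or 3 (adjusted p up to 0.118) and was 1.61e-05 with the block. The 8 ESC markers listed were all expressed, with Pou5f1, Sox2, Nanog and Esrrb among them. Tdgf1 was the most abundant in CPM, which is not corrected for gene length. Per kilobase of exon Dppa5a was above Tdgf1 in control input (1111.8 against 811.9 CPM per kb).

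Polysome libraries numbered 1 and 2 stood apart from those numbered 3 and 4 in both siRNA groups. On the first principal component of the polysome libraries, which held 61.5% of the variance, libraries 1 and 2 lay between -63.7 and -8.2 and libraries 3 and 4 between 15.8 and 43.6. The labels name no batch for this split. Because same-numbered libraries moved together, each comparison was also fitted with the replicate number as a block, and that value is given where it changes a call, as a count for lists.

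The 10 genes spanned a wide range of levels. Per kilobase of exon, Ctnnb1 was at 220.6 ± 13.5 CPM in control input (SD, n = 4) and Notum, which encodes a secreted enzyme that inactivates Wnt ligands, was at 26.4 ± 2.44. Tcf7 followed at 5.21 ± 0.289 and Tcf7l1 at 2.09 ± 0.221. These first 4 genes did not overlap with their neighbours in the order of per-length levels. Axin2 came next at 0.834 ± 0.134 and Tcf7l2 at 0.511 ± 0.202 CPM per kilobase, with overlapping libraries. Nkd1 (0.242 ± 0.0995), Lef1 (0.158 ± 0.117), Sp5 (0.147 ± 0.0482) and T (0.14 ± 0.0711 CPM per kilobase) were lowest and overlapped in turn. After RAM siRNA the first 6 places of the order were the same in both fractions and Lef1 was last. Axin2 and Tcf7l2 no longer overlapped in either fraction. Nothing is read from this, since Axin2 was chosen for being higher in these groups. The libraries of all 4 groups are drawn per length in the plot of levels.

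**Figure D1:**
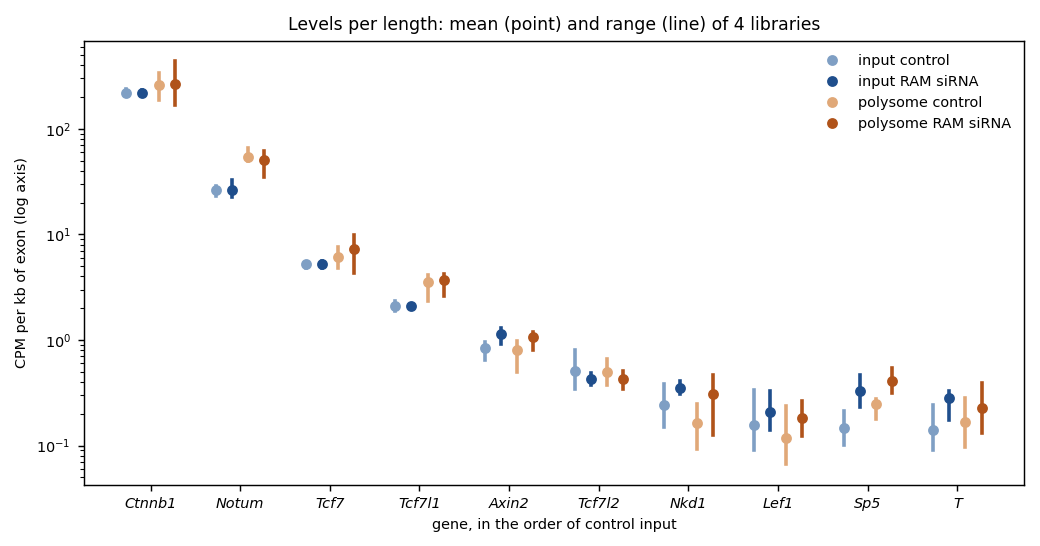
Level of each gene per kilobase of exon (CPM per kb, log axis) in control and RAM siRNA input and polysomes; points are means and lines span the 4 libraries of a group. In control input Ctnnb1 lies at 220.6 and Notum at 26.4 CPM per kb, and from Axin2 downward neighbouring genes overlap in that group.

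At these levels 7 of the 10 genes passed the filter of at least 1 CPM in at least 10 libraries that left 12805 genes to test. Lef1 reached 1 CPM in 9 libraries, Sp5 in 2 and T in 0, and their values come from a fit without the filter. Nkd1 passed with exactly 10 libraries, 7 of them RAM siRNA libraries, so it passed largely through the groups in which it was higher.

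Axin2, the scaffold of the destruction complex that Wnt signalling itself induces, lies on the plus strand of GRCm38 at chr11:108920349-108950783. It had 88, 97, 65 and 94 counts in control input and 115, 110, 94 and 126 after RAM siRNA. Library 3 was the lowest of each group, and the groups overlapped only through library 3 of the RAM siRNA group, which lay within the control range. The means were 4.59 ± 0.737 and 6.21 ± 0.863 CPM (SD, n = 4), a log2 fold change of 0.43 or 1.35-fold. Within same-numbered pairs the difference in log2(CPM + 0.5) was narrow, between 0.36 and 0.45 with an SD of 0.04, and 4 of 4 pairs were higher. In polysomes Axin2 had 83, 101, 48 and 93 counts in control and 101, 114, 88 and 106 after RAM siRNA. Library 3 was again lowest in each group, the groups again overlapped, and the pairs spread more widely, between 0.23 and 0.61. The polysome means were 4.46 ± 1.23 and 5.83 ± 0.966 CPM, with a log2 fold change of 0.43 as in input, which was 0.27 without control polysome library 3. Of all tested genes, 25.9% were higher in all 4 pairs in input and 14.9% in polysomes, and nothing is read from Axin2 against these shares because its contrast chose the list. In bulk RNA, more cells that express a gene and more RNA per cell cannot be told apart.

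**Figure D2:**
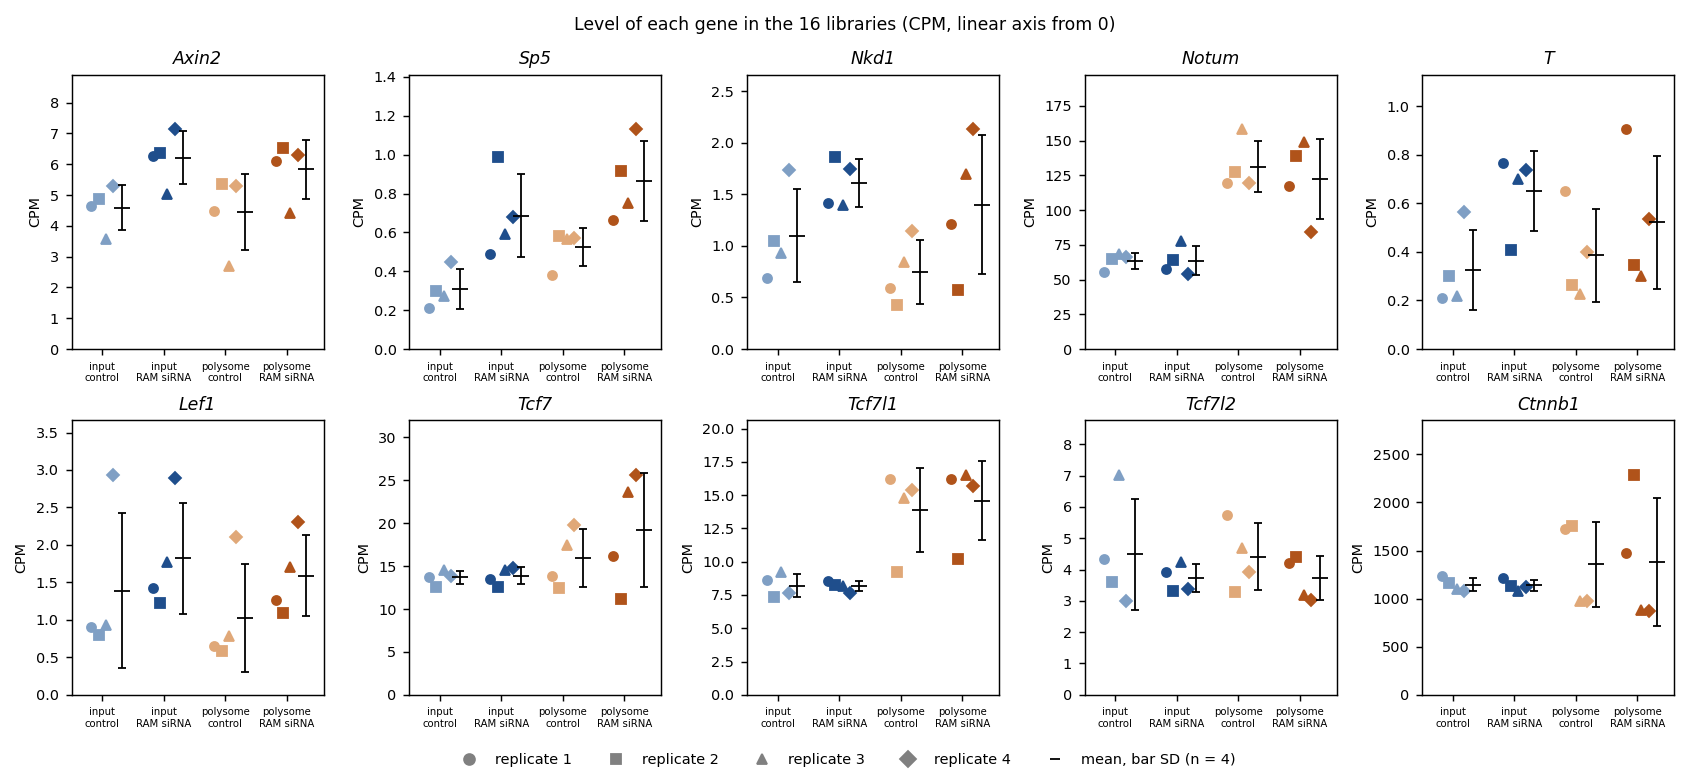
CPM of the 10 genes in each of the 16 libraries (linear axes from 0), with symbols for the replicate number and a bar for the mean and SD of 4 libraries. Axin2 lies at 4.59 CPM in control input and 6.21 CPM in the RAM siRNA group on average, and in polysomes Ctnnb1 is high in libraries 1 and 2 of both siRNA groups.

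Among the other target genes, Sp5, an Sp family transcription factor, had the largest fitted ratio in input and very few counts. It had 4, 6, 5 and 8 counts in control input and 9, 17, 11 and 12 after RAM siRNA. Every RAM siRNA library lay above every control library. Such a separation was found upward in 6.16% of the 28462 genes with a count in input. In the fit without the filter the log2 fold change of Sp5 was 1.11 (SE 0.406), which did not pass the threshold (adjusted p = 0.0849 in edgeR). With the block added to that fit it passed (adjusted p = 0.024), as did 9.08% of genes upward. In polysomes Sp5 had 7, 11, 10 and 10 counts in control and 11, 16, 15 and 19 after RAM siRNA. As CPM these groups did not overlap (0.379 to 0.583 against 0.663 to 1.13), a separation seen upward in 2.49% of 25266 genes. The log2 fold change of 0.71 (SE 0.356) did not pass (adjusted p = 0.732 in edgeR, 0.223 with the block).

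T, a T-box factor of the primitive streak, had 4, 6, 4 and 10 counts in control input and 14, 7, 13 and 13 after RAM siRNA. Library 2 of the RAM siRNA group lay within the control range and the other 3 above it. The log2 fold change of 0.98 (SE 0.409) did not pass (adjusted p = 0.153 in edgeR, 0.0589 with the block). In polysomes the counts were 12, 5, 4 and 7 in control and 15, 6, 6 and 9 after RAM siRNA, with library 1 the highest of each group. The groups overlapped, and the log2 fold change of 0.41 had an adjusted p of 0.821 in edgeR.

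Nkd1, which encodes a Dishevelled-binding feedback inhibitor, had 13, 21, 17 and 31 counts in control input and 26, 32, 26 and 31 after RAM siRNA. Control library 4 reached the RAM siRNA range, and the other 3 control libraries lay below it. The log2 fold change in input was 0.54 (SE 0.266, adjusted p = 0.21 in edgeR, 0.0554 with the block), and 0.84 without control library 4 (adjusted p = 0.0537 in edgeR). In polysomes Nkd1 had 11, 8, 15 and 20 counts in control and 20, 10, 34 and 36 after RAM siRNA. Both groups were lowest in library 2 and highest in library 4, so they overlapped although 4 of 4 pairs were higher. The log2 fold change was 0.96 (SE 0.448, adjusted p = 0.582 in edgeR), and with the block it was 0.94 (SE 0.255) and passed (adjusted p = 0.0218).

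Notum was close to level between siRNA groups. It had 1044, 1290, 1255 and 1171 counts in control input and 1056, 1106, 1455 and 960 after RAM siRNA. Library 3 of the RAM siRNA group was above and library 4 below all controls, and the log2 fold change was -0.0032 (SE 0.111, adjusted p = 0.99 in edgeR). In polysomes it had 2204, 2403, 2804 and 2103 counts in control and 1946, 2427, 2980 and 1423 after RAM siRNA, with a log2 fold change of -0.05 (adjusted p = 0.991 in edgeR).

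The 4 TCF/LEF genes, which bind the motif shown above, differed in level and none passed the threshold for RAM siRNA. Tcf7, the most abundant of them in input, had 260, 252, 264 and 246 counts in control and 248, 218, 270 and 261 after RAM siRNA. The groups overlapped throughout, with a log2 fold change of 0.02 (SE 0.0903, adjusted p = 0.921 in edgeR). Tcf7l1, the main repressor of the family in ESCs, had 163, 146, 168 and 136 counts in control input and 156, 142, 153 and 135 after RAM siRNA. Its log2 fold change was -0.01 (adjusted p = 0.966 in edgeR). Tcf7l2 had 82, 72, 128 and 53 counts in control input and 72, 57, 79 and 60 after RAM siRNA. Control library 3 stood above all others, and the log2 fold change of -0.27 did not pass (adjusted p = 0.499 in edgeR). Without that library it turned to 0.03, and without control library 4 it was -0.42. Lef1 had 17, 16, 17 and 52 counts in control input and 26, 21, 33 and 51 after RAM siRNA. Library 4 was high in both groups, the other 3 pairs were higher after RAM siRNA, and the log2 fold change was 0.38 (SE 0.277, adjusted p = 0.517 in edgeR).

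In polysomes the TCF/LEF genes spread more. Tcf7 had 254, 236, 310 and 349 counts in control and 269, 196, 472 and 432 after RAM siRNA, with libraries 3 and 4 above 1 and 2 in each group. The log2 fold change was 0.33 (SE 0.29, adjusted p = 0.897 in edgeR). Tcf7l1 had 300, 174, 263 and 270 counts in control polysomes and 268, 178, 329 and 264 after RAM siRNA, with library 2 lowest in each group and a log2 fold change of 0.13 (adjusted p = 0.974 in edgeR). Tcf7l2 had 106, 62, 83 and 69 counts in control polysomes and 70, 77, 64 and 51 after RAM siRNA, with a log2 fold change of -0.20 (adjusted p = 0.941 in edgeR). Lef1 had 12, 11, 14 and 37 counts in control polysomes and 21, 19, 34 and 39 after RAM siRNA. In 4 of 4 pairs it was higher, the groups overlapped through control library 4, and the log2 fold change of 0.63 did not pass (adjusted p = 0.732 in edgeR, 0.0615 with the block).

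Ctnnb1, which also links cadherins to the cytoskeleton at cell junctions, was level in input and split by replicate number in polysomes. In input it had 23399, 23177, 20082 and 19245 counts in control and 22243, 19535, 20196 and 19791 after RAM siRNA, a log2 fold change of -0.01 (adjusted p = 0.938 in edgeR). In polysomes it had 31900, 33073, 17299 and 17130 counts in control and 24399, 39837, 17605 and 14775 after RAM siRNA. Libraries 1 and 2 of both groups lay between 1470.9 and 2283.0 CPM, and libraries 3 and 4 between 876.2 and 975.6 CPM. The log2 fold change was 0.07 over all libraries (SE 0.34, adjusted p = 0.993 in edgeR). Tcf7 went the other way in the same libraries, from 11.2 to 16.2 CPM in polysome libraries 1 and 2 and from 17.5 to 25.6 CPM in 3 and 4. Over the 16 libraries, after subtracting group means, the correlation of log2 CPM between Tcf7 and Ctnnb1 was -0.96, between Nkd1 and Ctnnb1 -0.84 and between Tcf7 and Nkd1 0.81. These values describe libraries that share the replicate split, and other tested genes were not compared in this way. In input the same split was small, with Ctnnb1 at 1132.8 to 1237.2 CPM in libraries 1 and 2 and 1083.2 to 1119.7 CPM in 3 and 4.

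Counted together for input, 0 of the 6 genes tested besides Axin2 passed the threshold in either direction, with or without the block, where 12.9% of all 12805 tested genes passed without it and 39.3% with it. In polysomes 0 of the 6 passed without the block and 1 (Nkd1) with it, against 0.0234% and 14.6% of all tested genes. Nkd1 passed the filter on low counts mainly through RAM siRNA libraries, so its call is a description and nothing is read from this count. Without the block, 0 of the 6 had an unadjusted p under 0.05 in edgeR in either fraction, against 28% of all tested genes in input and 9% in polysomes. In DESeq2 0 of the 6 passed in either fraction, against 15.4% and 2.34%. The plot of pair differences shows each gene's change in every pair, with Notum, Tcf7l1 and Ctnnb1 on both sides of 0.

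**Figure D3:**
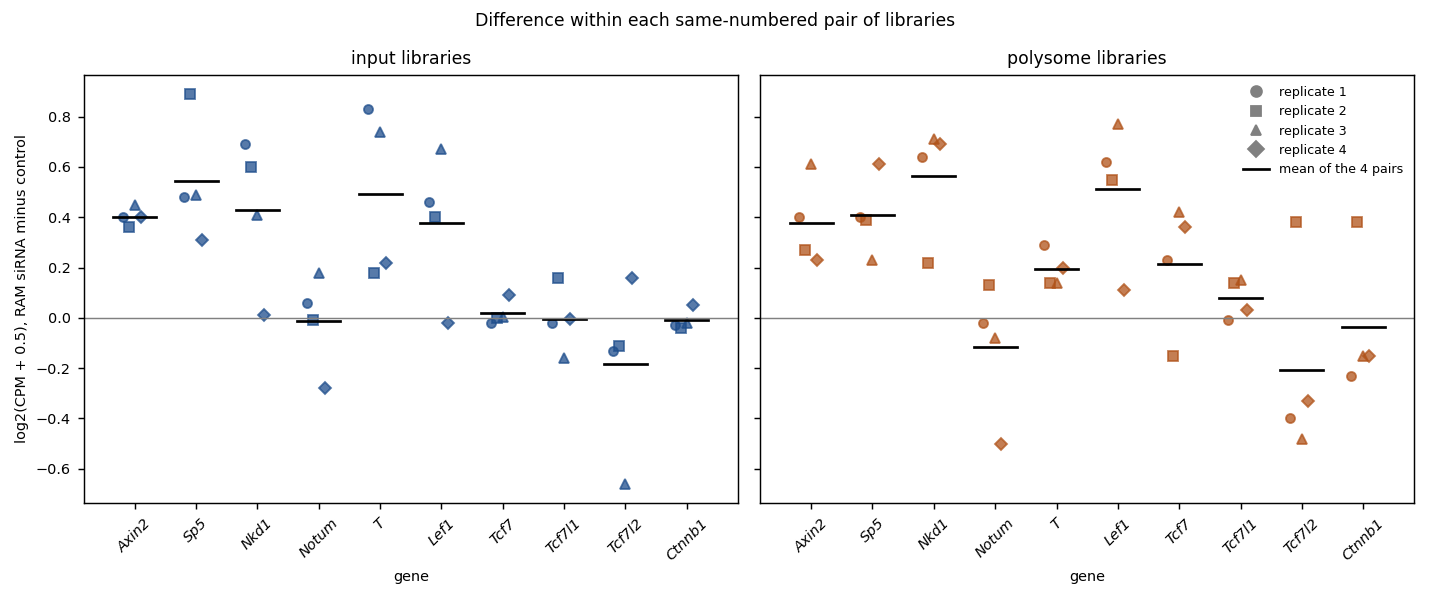
Difference in log2(CPM + 0.5) between RAM siRNA and control for each same-numbered pair of libraries (symbols) and the mean of the 4 pairs (lines), in input and polysomes. Axin2 pairs lie from 0.36 to 0.45 in input and from 0.23 to 0.61 in polysomes; the added 0.5 CPM shrinks the differences of Sp5, T, Nkd1 and Lef1.

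Polysome loading, the change in polysomes over and above that in input, shows how RAM siRNA moved a gene relative to other genes. It does not give the share of a gene's RNA on polysomes. The scaling of libraries removes a shift common to all genes, such as the fall in polysomes relative to monosomes that the paper reports. The loading contrast uses the same libraries as the comparisons above. Axin2 had a loading difference of -0.05 on the log2 scale, with 2 pairs up and 2 down, and from -0.23 to 0.08 when single libraries were left out. Among the other 6 tested genes the values ran from -0.10 for Notum to 0.37 for Nkd1 (SE 0.522), and 0 passed the threshold in edgeR. Leaving out single libraries moved the value of Nkd1 between 0.11, without RAM siRNA polysome library 4, and 0.63, without control polysome library 4. Of all 12805 tested genes 0 (0%) passed, with 100 (0.781%) at an unadjusted p under 0.05. DESeq2 called 1 gene (0.00781%) and the block within each fraction 2 (0.0156%), and in both 0 of the 6 genes tested besides Axin2 passed. In the fit without the filter T was lower in 4 of 4 pairs, with a log2 difference of -0.53 (SE 0.619, adjusted p = 1 in edgeR), and Lef1 was higher in 4 of 4 pairs at 0.31 (SE 0.577, adjusted p = 1). Of the 29364 genes with a count, 7.09% were lower and 3.84% higher in all 4 pairs.

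Polysomes against input in control cells asks which genes were enriched on polysomes relative to other genes before any loss of RAM. All 10 genes had counts in control polysomes, so a gene that did not pass was not absent from them. The choice of the genes did not use this contrast, and 7 of the 10 passed the filter and were tested. The contrast shares the control libraries with the siRNA comparisons. Per the study's methods, polysome RNA was extracted with phenol and chloroform and precipitated with lithium chloride, and input RNA was extracted with Trizol. Fraction and RNA purification therefore cannot be told apart in these ratios. Notum and Tcf7l1 were higher in polysomes than in input, and the other 5 tested genes did not pass. Notum rose from 55.2, 64.7, 68.7 and 65.9 CPM in input to 119.3, 127.3, 158.1 and 119.6 CPM in polysomes. Every polysome library lay above every input library, as for 30.7% of tested genes, with a log2 ratio of 1.01 or 2.01-fold (SE 0.131, adjusted p = 4.4e-05 in edgeR). Tcf7l1 rose from 8.62, 7.32, 9.2 and 7.65 CPM to 16.2, 9.22, 14.8 and 15.4 CPM. Library 2 was lowest in both fractions, and its polysome value lay just above the highest input value. The log2 ratio was 0.73 or 1.65-fold (SE 0.179, adjusted p = 0.0037 in edgeR), and with libraries 1 and 2 alone it was 0.61 (adjusted p = 0.0644). These 2 of 7 tested genes compare with 33.1% of all tested genes that were higher in polysomes and 67.4% that differed in either direction.

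Tcf7, the other factor that moved with the polysome split, had a log2 ratio of 0.18 (adjusted p = 0.32 in edgeR), from -0.06 in libraries 1 and 2 to 0.40 in libraries 3 and 4. Ctnnb1 had a ratio of 0.21 (adjusted p = 0.387 in edgeR), which was 0.48 in libraries 1 and 2 and -0.16 in libraries 3 and 4, so its direction depended on the pair of libraries. Axin2 was at -0.08 (SE 0.223, adjusted p = 0.775 in edgeR) and Tcf7l2 at -0.06 (adjusted p = 0.847). Nkd1 was lower in 4 of 4 pairs, as were 36.8% of tested genes, at -0.59 (SE 0.365, adjusted p = 0.173 in edgeR), which was -0.29 without input library 4 and -0.37 without polysome library 2. Without the filter, Sp5 was at 0.86 (adjusted p = 0.109 in edgeR), T at 0.35 (adjusted p = 0.554) and Lef1 at -0.33 (adjusted p = 0.483), in a fit whose scaling set the tested genes higher by 0.14 at the median. Antisense genes overlap the exons of Notum (Notumos, 2 to 18 counts a library) and Tcf7l1 (Gm15401, 0 to 3 counts), far below the counts of both genes. The strand setting of the counting is not given in the sources used here.

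**Figure D4:**
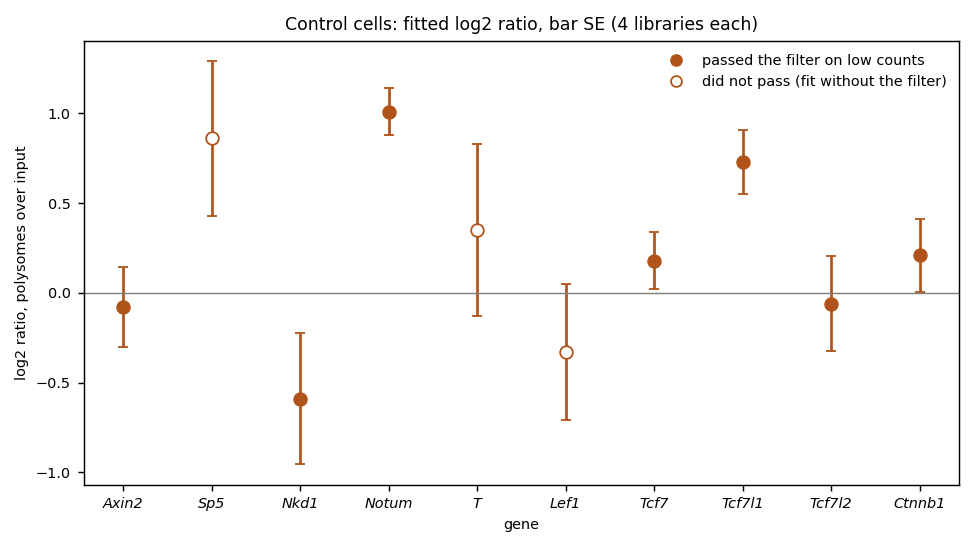
Fitted log2 ratio of polysomes over input in control cells for each gene, with its SE (4 libraries a fraction); open points are genes that missed the filter on low counts. Notum at 1.01 and Tcf7l1 at 0.73 passed the threshold.

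Beside the 10 genes, 113 genes of the pathway were listed by role and all were matched to the table, of which 80 passed the filter. In input 10 of the 80 rose and 3 fell after RAM siRNA (22 and 15 with the block), with a median log2 fold change of 0.03 against 0.0007 over all tested genes, of which 6.95% rose and 5.94% fell (20.3% and 19% with the block). The 13 calls became 7 without control library 1 or RAM siRNA library 1 or 2, 8 without control library 4 and 21 without RAM siRNA library 4. In polysomes 0 of the 80 passed in edgeR without the block, 16 had an unadjusted p under 0.05 (9% of all tested genes) and DESeq2 called 6 (2.34% of all tested genes). With the block 19 rose and 2 fell, against 9.68% and 4.97% of all tested genes. The plot by role shows where these genes lie.

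**Figure D5:**
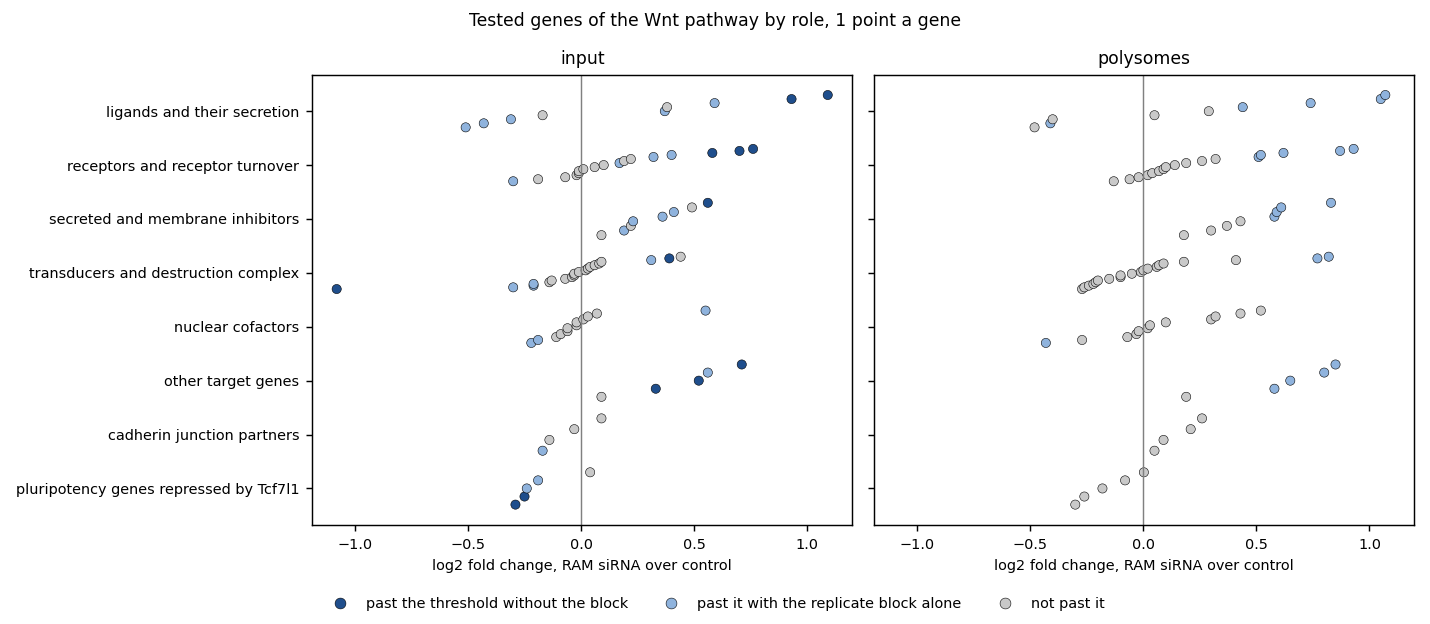
Log2 fold change of RAM siRNA over control for the 80 tested pathway genes, 1 point a gene, by role, in input and polysomes; dark points passed the threshold without the replicate block and light blue points with it alone. The ligands Wnt5b and Wnt8a lie farthest to the right in both fractions, and Frat1 at -1.08 farthest to the left in input.

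Of the ligands and the proteins that secrete them, 2 of 9 tested rose in input and 0 fell (4 and 3 with the block), with a median of 0.37. Over all tested genes 6.95% rose and 5.94% fell (20.3% and 19% with the block). Wnt5b, a ligand mostly of β-catenin-independent signalling, had 53, 38, 31 and 32 counts in control input and 78, 96, 60 and 80 after RAM siRNA. The groups did not overlap (9.39% of all tested genes upward), and the log2 fold change was 1.09 (SE 0.209, adjusted p = 0.00586 in edgeR). Wnt8a, a ligand of the early embryo, had 22, 36, 22 and 17 counts in control and 44, 55, 47 and 31 after RAM siRNA. The groups overlapped through control library 2, and the log2 fold change was 0.93 (SE 0.241, adjusted p = 0.0255 in edgeR). Wls, the carrier that brings Wnt proteins to the cell surface, was at 0.59 (adjusted p = 0.148 in edgeR, 8.88e-07 with the block), with wide spread between libraries. It was higher in 4 of 4 pairs, which the rule for naming pathway genes required. Wnt3a at -0.51 and Wnt7b at -0.43 passed with the block alone (adjusted p = 0.0266 and 0.0171). Without control library 2 these were -0.31 and -0.27, Wnt7b was -0.28 without control library 1, and Wls was 0.90 without control library 3 and 0.37 without RAM siRNA library 3. In polysomes Wnt8a was at 1.07 (adjusted p = 0.126 in edgeR, 0.00145 with the block) and Wnt5b at 1.05 (0.0694 and 2.66e-04). Wnt1 had 0 counts in all 16 libraries.

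Among receptors 3 of 17 tested rose in input and 0 fell (6 and 1 with the block), with a median of 0.10. The shares of all tested genes were 6.95% and 5.94% (20.3% and 19% with the block). Ryk, a receptor-like protein that binds Wnt ligands, had 1784, 1906, 1814 and 1746 counts in control input and 3050, 2700, 2951 and 2625 after RAM siRNA. The groups lay far apart, at 96.9 ± 2.33 and 157.5 ± 7.39 CPM (SD, n = 4), and the log2 fold change was 0.70 (SE 0.0658, adjusted p = 8.38e-05 in edgeR). Fzd9 had 151, 208, 164 and 159 counts in control and 286, 278, 270 and 272 after RAM siRNA. This Frizzled receptor rose by 0.76 on the log2 scale (SE 0.1, adjusted p = 6.19e-04 in edgeR), with no overlap (9.39% of all tested genes upward). Fzd4 rose by 0.58 (SE 0.124, adjusted p = 0.00992 in edgeR). In polysomes Fzd9 was at 0.93 (adjusted p = 0.21 in edgeR, 6.68e-04 with the block) and Ryk at 0.87 (0.0918 and 2.15e-04).

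Of the secreted and membrane inhibitors 1 of 8 tested rose and 0 fell (5 and 0 with the block), all 8 were above 0 and the median was 0.30. Across all tested genes 6.95% rose and 5.94% fell (20.3% and 19% with the block), and the median without the block was 0.0007. Sfrp2, a secreted Wnt-binding protein, had 863, 919, 797 and 893 counts in control input and 1356, 1120, 1297 and 1170 after RAM siRNA. The groups did not overlap (9.39% of all tested genes upward), and the log2 fold change was 0.56 (SE 0.0711, adjusted p = 5.16e-04 in edgeR). Dkk1, which blocks the LRP co-receptors, was at 0.83 in polysomes (adjusted p = 0.398 in edgeR, 0.0213 with the block).

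Of the transducers and the destruction complex 1 of 20 tested rose and 1 fell (2 and 4 with the block), with a median of -0.02. These compare with 6.95% and 5.94% of all tested genes (20.3% and 19% with the block). Frat1, a GSK3-binding protein, fell from 38, 47, 31 and 47 counts in control input to 19, 20, 13 and 22 after RAM siRNA. The groups did not overlap (8.62% of all tested genes downward), and the log2 fold change was -1.08 (SE 0.225, adjusted p = 0.00907 in edgeR). The gene that rose was Tnks, a tankyrase that promotes Axin turnover, at 0.39 (adjusted p = 0.0352 in edgeR), a gene named after its value was seen. Of the nuclear cofactors 0 of 12 passed in edgeR (1 rose and 2 fell with the block), with 2 at an unadjusted p under 0.05 (28% of all tested genes), 0 calls in DESeq2 and a median of -0.04.

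Of the 9 other target genes listed 5 were tested, of which 3 rose in input and 0 fell (4 and 0 with the block), with a median of 0.52. Beside them stand 6.95% of all tested genes that rose and 5.94% that fell (20.3% and 19% with the block). Ccnd1, the G1 cyclin D1, had 221, 207, 166 and 306 counts in control input and 339, 312, 295 and 474 after RAM siRNA. Library 4 was the highest of each group, the groups overlapped through it, and the log2 fold change was 0.71 (SE 0.196, adjusted p = 0.0334 in edgeR). Tnfrsf19, a TNF receptor family member, had 233, 276, 250 and 205 counts in control and 351, 361, 340 and 271 after RAM siRNA, and rose by 0.52 (SE 0.11, adjusted p = 0.0102 in edgeR). Bambi, a pseudoreceptor of TGF-β signalling, rose by 0.33 (adjusted p = 0.0293 in edgeR) and was named after its value was seen. In polysomes the caudal homeobox gene Cdx1 was at 0.85 (adjusted p = 0.41 in edgeR, 0.0221 with the block). The call of Ccnd1 in input was lost without control library 1, 2 or 3 or RAM siRNA library 1 or 2 (adjusted p up to 0.0966 in edgeR), and that of Wnt8a without control library 1 or 4 or RAM siRNA library 1, 2 or 3 (up to 0.078).

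Of the cadherin junction partners of β-catenin 0 of 4 passed in input in edgeR, 0 had an unadjusted p under 0.05 and 0 passed in DESeq2 (0 rose and 1 fell with the block), with a median of -0.08. The shares of all tested genes were 12.9%, 28% and 15.4% (39.3% past the threshold with the block). Of the 5 pluripotency genes that Tcf7l1 is known to repress, 0 rose and 2 fell in input (0 and 4 with the block), where 5.94% of all tested genes fell (19% with the block), with a median of -0.24. Nanog was at -0.29 (SE 0.0725, adjusted p = 0.0205 in edgeR) and Esrrb at -0.25 (SE 0.0665, adjusted p = 0.029), while Tcf7l1 itself was level. In polysomes 0 of these 5 passed in edgeR without the block, where 0.0234% of all tested genes did, or with it (14.6% of all tested genes). Without the block 0 had an unadjusted p under 0.05 and 0 passed in DESeq2.

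In control cells 26 of the 80 pathway genes were higher in polysomes than in input and 23 lower, near the 33.1% and 34.3% of all tested genes. With the block these were 29 and 26, against 35.1% and 37.2%. By role, 4 of 9 ligand genes were higher and 0 lower (6 and 1 with the block), 9 and 3 of 17 receptors, 5 and 1 of 8 inhibitors, 4 and 10 of 20 transducers, 1 and 5 of 12 cofactors (2 and 6 with the block) and 0 and 2 of 4 junction partners. No role was tested against the rest. The highest ratios were those of Sfrp2 at 1.42, the receptor Fzd2 at 1.34, the co-receptor Lrp5 at 1.20 and Wnt11 at 1.11 on the log2 scale. The lowest were those of Amer1, which binds APC, at -2.57, the pluripotency factor Tfcp2l1 at -1.92, the Dickkopf receptor Kremen1 at -1.88 and Tnks at -1.76. All of these passed the threshold in edgeR, with the largest adjusted p (0.0177) for Wnt11, which lost its call without control input library 4 or control polysome library 3 (adjusted p up to 0.0567). Of the other target genes 1 of 5 was higher and 0 lower (1 and 1 with the block), and of the genes repressed by Tcf7l1 2 of 5 were higher and 2 lower.

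Markers of other cell types that ESC cultures can hold were summed in input. The 5 primitive endoderm genes summed to 11.3, 12, 11.8 and 11.8 CPM in control input and 12.6, 14.5, 14.5 and 11.9 CPM after RAM siRNA. In CPM, which is not corrected for length, Sox7 was the most abundant in control and Dab2 after RAM siRNA. Per kilobase of exon Sox7 was the highest in both groups, at 1.33 and 0.775 CPM per kb. Of the 4 tested, Gata6 rose by 0.61 (adjusted p = 0.0196 in edgeR) and Dab2 by 0.55 (adjusted p = 0.0384), where 6.95% of all tested genes rose. Sox7 went the other way, with 72, 96, 82 and 78 counts in control and 36, 58, 66 and 24 after RAM siRNA. Its groups did not overlap (8.62% of all tested genes downward). Its log2 fold change of -0.77 passed with the block (adjusted p = 0.00113 in edgeR) and in DESeq2 without it (0.021), but not in edgeR without it (0.0573). The 6 fibroblast genes summed to 18.2, 19.8, 17.5 and 16.8 CPM in control and 28.5, 24, 20.8 and 18.5 CPM after RAM siRNA. Pdgfra was the most abundant in CPM, and Thy1 per kilobase (2.46 CPM per kb in control and 2.81 after RAM siRNA). Of the 2 tested 0 passed the threshold (Pdgfra, at 0.44 on the log2 scale, passed with the block, adjusted p = 0.00309 in edgeR). The 6 genes of primitive streak and mesoderm, T among them, summed to 15.8 ± 1.01 CPM in control and 13.6 ± 1.8 CPM after RAM siRNA, with Eomes the most abundant and, of the 6, alone tested. The other 5 missed the filter and had fitted values above 0, from 0.03 for Gsc upward, with T at 0.98. Mixl1, with 0, 2, 0 and 0 counts in control and 5, 1, 4 and 6 after RAM siRNA, passed in the fit without the filter (adjusted p = 0.044 in edgeR) and not with the block added to it (0.0606). The 4 primed epiblast genes summed to 88.9 ± 16.2 and 85.1 ± 12.7 CPM (Dnmt3b most abundant), and the 5 neural progenitor genes to 79.4 ± 5.49 and 86.4 ± 6.52 CPM. Among the neural genes Tubb3 was highest in CPM in control and Nes after RAM siRNA. Per kilobase Tubb3 was highest in both groups (17.6 and 18 CPM per kb). In edgeR 0 tested genes of these 3 lists passed the threshold. With the block Eomes (-0.31), Otx2 (-0.24), Pou3f1 (-0.46) and Pax6 (-0.50) passed as lower and Nes (0.42) as higher. DESeq2 called Nes and Pax6 and 0 of the other tested genes of these 3 lists. The 8 ESC markers summed to 4774.3 ± 175.0 CPM in control and 4156.1 ± 259.0 CPM after RAM siRNA. Nanog, Esrrb and Dppa5a fell (7 of 8 with the block), where 5.94% of all tested genes fell (19% with the block). No listed marker was at 0 in all libraries, though 2 of the streak and 2 of the fibroblast genes had a median of at most 3 counts. The part of these cell types in the differences of Axin2 and the other target genes was not tested.

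The genes most like Axin2 over the 16 libraries, out of 9140 tested genes averaging 10 CPM or more, were Polr3e (Pearson r of 0.896), Plcg2 (0.867), Nefh (0.836), Kdm2b (0.822) and Rbm44 (0.814). All 5 had positive log2 fold changes in both fractions, from 0.20 to 0.65 in input and from 0.19 to 0.81 in polysomes. The libraries share the replicate numbers and the siRNA contrast, in which Axin2 was chosen for being higher. These correlations are therefore a description, and the way the genes were picked favours positive fold changes.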

How the data were processed

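Libraries were made with ribosomal RNA removal and a stranded kit. The authors mapped reads to GRCm38 (mm10) with STAR 2.5.1b, counted them on genes with HTSeq and deposited raw counts per gene. The counting's strand setting and annotation release are not given in the sources used here. The table held 0 other columns, 46488 of 46983 gene IDs matched a symbol, and the rest took 0.0289% of the counts. The floor of 3 counts corresponds to 0.15 to 0.181 CPM and covers counting error only. Replicates of a group differed by more than counting noise (chi-square per gene of at least 5.09 in any pair).

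The 12805 genes that reached 1 CPM in 10 or more of the 16 libraries, the filter of the study's methods, were tested. Counts were scaled by TMM and compared in edgeR 4.0.16 (R 4.3.3) by its quasi-likelihood F test, with Benjamini-Hochberg adjustment over all tested genes and a threshold of 0.05. Comparisons within a fraction or within control cells used 8 libraries, and loading used 16. The steps were tested on simulated counts. Pair differences and correlations used log2(CPM + 0.5). Exon lengths and positions came from GENCODE vM21 (GRCm38) and promoter windows from RefSeq.

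Same-numbered libraries pair the siRNA groups, since their deviations from the group means correlated in every pair (at least 0.315 in input and 0.541 in polysomes, means 0.499 and 0.777), so a replicate block was fitted as an alternative. The main fit leaves this pairing out, so a gene that missed its threshold may still differ within pairs. In input it called 1651 genes, against 5028 with the block. The paper's counts of lower and higher genes in input are nearer to those with the block. Other alternatives were RLE size factors, DESeq2 1.42.0, no filter, 1 fit of all libraries and leaving out each library. The fit without filter but with the block, and fits of replicates 1 and 2 or 3 and 4 alone, were added after seeing the data. The 10 genes, the pathway and marker lists and these tests were chosen with earlier results of these data known. Named genes were the 10, Ramac, Rnmt and the markers, the 12 pathway genes in input and 6 in polysomes with the largest change among those past the threshold without or with the block and alike in all 4 pairs, the 4 highest and 4 lowest in polysomes against input, and the 5 most correlated with Axin2. Overlapping genes on the other strand are given where they bear on a value.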

Additional observations from a re-analysis of the deposited data

Results flagged for a closer look

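In 5 of 48 groups of 4 libraries examined (12 genes in 4 groups each), 1 library lay far from the other 3, by a test of its gap against the range that chance passes in about 1 in 20 groups, or 2.4 of the 48. Lef1 was at 2.93 CPM in control input library 4, with the others between 0.802 and 0.931 CPM, and at 2.1 CPM in control polysome library 4, with the others between 0.583 and 0.79 CPM. Library 4 was also the highest for Lef1 in both RAM siRNA groups. Tcf7l1 was at 10.2 CPM in RAM siRNA polysome library 2, with the others between 15.7 and 16.5 CPM. Sp5 was at 0.379 CPM (7 counts) in control polysome library 1, with the others between 0.564 and 0.583 CPM. Ramac was at 2.67 CPM in RAM siRNA input library 2, with the others between 3.11 and 3.17 CPM.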

How the results depend on the processing

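With the replicate block, genes past the threshold in input went from 1651 to 5028 (5459 with the block and no filter), and in polysomes from 3 to 1875 (2320). In polysomes DESeq2 gave 300 and no filter 39, and libraries 1 and 2 or 3 and 4 alone gave 0 each. In polysome loading DESeq2 gave 1 and the block within each fraction 2. Of the genes besides Axin2, the block gave 1 in polysomes (Nkd1), and with no filter 1 in input (Sp5) and 1 in polysomes (Nkd1). Leaving out single libraries gave 913 to 2506 genes in input and 0 to 48 in polysomes. Polysomes against input in control cells kept 2 of the genes under each alternative run, but with libraries 1 and 2 alone these were Notum and Ctnnb1. Without the filter the ratios there sat 0.14 higher at the median, and Axin2 turned to 0.06 (0.04 with the block) and Tcf7l2 to 0.08 (0.11). With libraries 1 and 2 alone Tcf7 was at -0.06 and Tcf7l2 at 0.12 in that comparison, Notum at 0.09 in polysomes and 0.09 in loading, and Nkd1 at -0.06 in loading. With libraries 3 and 4 alone Ctnnb1 was at -0.16 in control polysomes, -0.09 after RAM siRNA in polysomes and -0.16 in loading, and Tcf7l2 at -0.08 in loading. Tcf7 in input turned to -0.01 without the filter (-0.01 with the block), Ctnnb1 in polysomes to -0.04 with the block and no filter, and Ctnnb1 in loading to -0.0045 with the block and -0.03 with it in each fraction. Leaving out single libraries turned the sign of these values. In input Tcf7 ranged from -0.02 to 0.06, Tcf7l1 from -0.06 to 0.05, Tcf7l2 from -0.42 to 0.03, Notum from -0.12 to 0.07 and Ctnnb1 from -0.05 to 0.03. In polysomes Tcf7l1 ranged from -0.05 to 0.27, Notum from -0.19 to 0.08 and Ctnnb1 from -0.27 to 0.22. In loading Axin2 ranged from -0.23 to 0.08, Tcf7l1 from -0.07 to 0.22, Tcf7l2 from -0.28 to 0.23, Notum from -0.20 to 0.07 and Ctnnb1 from -0.32 to 0.20, and in control cells Axin2 from -0.18 to 0.12 and Tcf7l2 from -0.21 to 0.23. Among values that kept their sign, Tcf7 ranged from 0.14 to 0.52 in polysomes, 0.08 to 0.44 in loading and 0.05 to 0.30 in control cells, Tcf7l2 from -0.33 to -0.08 in polysomes and Ctnnb1 from 0.08 to 0.36 in control cells. The cause of these changes was not tested. Sp5, T and Lef1 had 4 to 52 counts a library, and no limit of detection was computed for them.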
